A study of Arabidopsis thaliana with 20 samples.

Results

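The catalase and ascorbate peroxidase families of *A. thaliana* hold enzymes that remove hydrogen peroxide directly in most compartments of the plant cell. The 9 genes examined here are the catalase genes CAT1, CAT2 and CAT3 and the ascorbate peroxidase genes APX1, APX2, APX3, APX4, SAPX and TAPX, taken by gene identifier out of 33296 genes in the table. Expression was compared between shoots of non-aerated plants, grown in Petri dishes without air flow, and shoots of actively aerated plants, in 4 replicates per treatment. All plants were wild type Col-0 and grew on half-strength Murashige-Skoog medium with 1% sucrose and 0.8% agar. Aerated dishes received an air flow of 0.15 to 0.25 L/min through filters from the day after vernalization. The covers of non-aerated dishes were only opened and closed briefly on that day. According to the study's methods these dishes were sealed with Parafilm, and its results give the same seal for the aerated dishes. Each replicate pooled the shoots of the 10 plants of a dish, harvested 15 days after vernalization according to the labels. The study's results instead name an earlier day, and a fixed hour within the light period. The whole series has 20 samples, and the 12 of its second set (Micropore-sealed, non-aerated and aerated plants) are not analysed here.

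Catalases split hydrogen peroxide into water and oxygen without a reductant and act mainly in peroxisomes, where photorespiration forms hydrogen peroxide in the light. Ascorbate peroxidases reduce hydrogen peroxide to water with ascorbate, and reductases then return the oxidized ascorbate with electrons from NADH, NADPH and glutathione. CAT2 is known as the main catalase of photosynthetic leaf cells, CAT3 as a catalase of vascular tissue and CAT1 as a catalase of seeds and pollen. CAT2 and CAT3 are also known as clock-controlled genes with opposite phases, CAT2 in the morning and CAT3 in the evening. APX1 and APX2 encode cytosolic enzymes, and APX2 is known for its induction by heat and strong light. APX3 encodes an enzyme of the peroxisome membrane, SAPX that of the stroma, TAPX that of the thylakoid membrane, and APX4 a related protein of the thylakoid lumen, also called TL29.

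The deposited values are read counts of each library divided by its size factor, called normalized counts below. Reads recovered per library numbered 34330463 to 60255788 in non-aerated and 35666297 to 50631873 in aerated plants. Libraries are named by the number in their column of the table, 2, 4, 6 and 8 for non-aerated and 1, 3, 5 and 7 for aerated plants. Differences were tested with limma on log2 of the normalized count plus 1. The Benjamini-Hochberg adjustment ran over the 20160 genes that reached 10 normalized counts in 4 libraries or more. A log2 fold change is positive where expression was higher in non-aerated plants. The 6 leaf markers, which encode Rubisco, its activase, a carbonic anhydrase and photosystem proteins, summed to 1705000 to 2200000 normalized counts in non-aerated and 2000000 to 2641000 in aerated plants, and none of them had an adjusted p value under 0.05 (limma; 1 had an unadjusted p under 0.05, edgeR called 0 and DESeq2 1). The 9 root markers summed to 63.2 to 144 normalized counts in non-aerated and 113 to 336.2 in aerated plants, and 5 of them were at 0 in at least 1 non-aerated library, against 2 in the aerated libraries. Of the 4 root markers that were tested, limma called 0 (1 at an unadjusted p under 0.05), and edgeR and DESeq2 each called 1. The part of these markers in the results was not tested. In pooled shoots, fewer cells of a type and less RNA per cell cannot be told apart.

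The upstream sequences of the 4 genes that frame the results are shown first: the catalases that changed in opposite directions, and both cytosolic ascorbate peroxidases, of which APX1 changed most and APX2 was close to silent. Each is the 250 bases before the annotated gene start in the RefSeq annotation of TAIR10.1, 5′ to 3′ on the strand of the gene. Capitals mark exact matches, on either strand, to the core of the heat shock element (GAANNTTC), the G-box (CACGTG), the evening element of clock-controlled genes (AAAATATCT) or the W-box (TTGACC or TTGACT). CAT3 lies downstream of chr1:7142722-7142971 (plus strand), CAT2 of chr4:16703505-16703754 (minus strand), APX1 of chr1:2437031-2437280 (plus strand) and APX2 of chr3:2955906-2956155 (plus strand).
CAT3: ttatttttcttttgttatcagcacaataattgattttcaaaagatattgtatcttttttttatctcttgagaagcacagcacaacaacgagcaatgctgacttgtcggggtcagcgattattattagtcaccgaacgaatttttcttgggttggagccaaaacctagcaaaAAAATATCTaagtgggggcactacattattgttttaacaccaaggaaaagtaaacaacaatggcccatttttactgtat
CAT2: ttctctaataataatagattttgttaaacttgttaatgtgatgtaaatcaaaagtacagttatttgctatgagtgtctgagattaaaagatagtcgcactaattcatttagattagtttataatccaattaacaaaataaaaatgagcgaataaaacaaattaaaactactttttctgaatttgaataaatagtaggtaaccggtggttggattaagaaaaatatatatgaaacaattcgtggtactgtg
APX1: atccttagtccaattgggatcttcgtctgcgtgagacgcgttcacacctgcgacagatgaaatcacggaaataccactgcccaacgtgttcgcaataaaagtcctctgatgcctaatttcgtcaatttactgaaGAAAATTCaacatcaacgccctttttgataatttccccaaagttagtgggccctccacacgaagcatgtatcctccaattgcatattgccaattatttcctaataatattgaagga
APX2: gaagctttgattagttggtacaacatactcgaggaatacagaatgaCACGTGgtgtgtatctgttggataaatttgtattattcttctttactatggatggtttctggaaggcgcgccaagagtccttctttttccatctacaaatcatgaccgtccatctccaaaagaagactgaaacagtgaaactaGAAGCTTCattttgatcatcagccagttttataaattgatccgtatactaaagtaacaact
The CAT3 sequence holds the evening element, which starts 79 bases before the gene start and is found in 2.36% of 27443 gene upstream sequences of this length. The CAT2 sequence holds none of the motifs. The APX1 and APX2 sequences each hold a heat shock element core, 116 and 61 bases before the gene start, which is found in 9.55% of all upstream sequences. APX2 also has a G-box 204 bases before its start, a motif of 6.49% of sequences. Of the other members, APX3 has a G-box, and CAT1, SAPX and TAPX have a W-box, which 28.4% of all sequences hold. The sequences before CAT1, APX3 and TAPX also contain exons of a neighbouring gene, which for CAT1 is CAT3. APX4 has none of the motifs. None of these motifs overlapped another in the members. These matches describe letters and not binding.

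Of the 8 members that were tested, 3 were higher and 1 was lower in non-aerated plants with an adjusted p value under 0.05. Among all 20160 genes tested, 22.4% passed this threshold, 12.4% as higher and 10.0% as lower. APX1, CAT2 and SAPX increased, CAT3 decreased, and CAT1, APX3, APX4 and TAPX did not pass. APX2 stayed below the limit on counts and was not tested. Over the 8 genes the log2 fold change had a median of 0.04, against -0.002 over all genes tested. Non-aerated and aerated libraries were fully separated in 3 of the 8 genes, APX1, CAT3 and SAPX, against 27.3% of all genes tested. APX1 was the single member with a fold change of at least 2, a threshold that 7.88% of all genes tested passed together with the adjusted p value, 5.24% as higher.

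**Figure D1:**
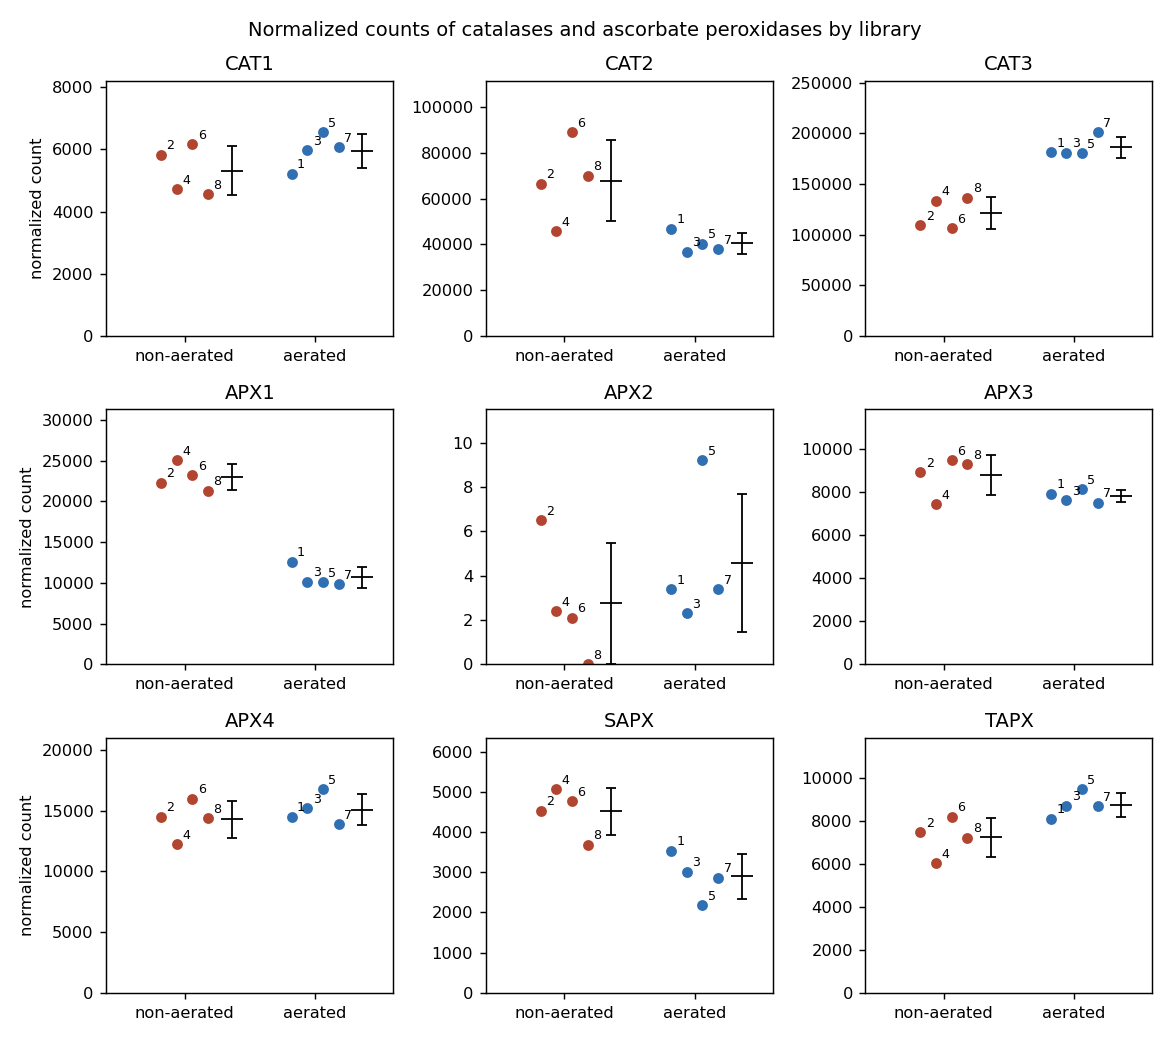
Normalized counts (linear axis from 0) of each of the 9 members in the 4 non-aerated (left, red) and 4 aerated (right, blue) libraries, numbered as in the table, with the mean and SD of each treatment as a bar beside the points. The 4 non-aerated libraries of APX1 sit between 21284 and 25007, all above the aerated libraries, whereas those of CAT3 sit between 106640 and 136361, all below them.

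CAT3 (AT1G20620, chr1:7142972-7146540) had the highest mean level per coding length of the members in both treatments and was the single one called as lower. Its normalized counts were 109428, 133653, 106640 and 136361 in non-aerated libraries 2, 4, 6 and 8, against 181627, 180953, 180636 and 201354 in aerated libraries 1, 3, 5 and 7. Every non-aerated library was thus lower than every aerated one, with the lowest counts in libraries 2 and 6. The mean was 121521 ± 15654 in non-aerated and 186143 ± 10150 in aerated plants (SD, n = 4 each). Expression was thus 1.54-fold lower (log2 fold change -0.62, standard error 0.14, limma adjusted p = 0.0121). Aerated library 7 was the highest by a wide gap, and without it the log2 fold change was -0.58 (limma adjusted p = 0.0488). When all genes with at least 1 read were included in the fit, the adjusted p value of CAT3 was 0.0670 (limma) at the same fold change.

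CAT2 (AT4G35090, chr4:16700312-16703504), the main catalase of photosynthetic cells, changed in the other direction. Its normalized counts were 66500, 45760, 89040 and 69967 in the non-aerated libraries, against 46743, 36819, 40233 and 37837 in the aerated libraries, in the same order. The treatments overlapped, since non-aerated library 4 was below aerated library 1, and the non-aerated libraries spread over a wider range. The mean was 67817 ± 17732 in non-aerated and 40408 ± 4459 in aerated plants (SD, n = 4 each), a log2 fold change of 0.71 (standard error 0.19, limma adjusted p = 0.0238) or 1.64-fold. Of the 4 changes, that of CAT2 most often lost its call when a library was left out. Its limma adjusted p value was 0.0668, 0.0516 and 0.0706 without aerated library 3, 5 or 7, 0.0552 without non-aerated library 2, and 0.00395 without non-aerated library 4. With any library left out, the log2 fold change of CAT2 stayed between 0.57 and 0.89. The 3′ end of CAT2 overlaps 95 bases of a gene on the opposite strand (AT4G35080), where reads of the unstranded kit cannot be told apart.

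CAT1 (AT1G20630, chr1:7146636-7150180) had the lowest level per length of the catalases and did not pass the test. Its normalized counts were 5824, 4729, 6171 and 4550 in the non-aerated libraries, against 5220, 5966, 6558 and 6069 in the aerated libraries. The ranges overlapped, and non-aerated libraries 4 and 8 lay below the others. The log2 fold change was -0.17 (95% interval -0.44 to 0.10, limma adjusted p = 0.351). CAT1 starts 95 bases downstream of the end of CAT3 on the same strand, with no gene between them. The coding sequences of the 3 catalases are 76.2% to 80.2% identical, and their longest shared run is 32 bases, shorter than a read of 100 bases.

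As CAT2 increased and CAT3 decreased, the makeup of catalase reads differed between the treatments. CAT2 made up 36.6%, 24.9%, 44.1% and 33.2% of catalase reads in non-aerated libraries 2, 4, 6 and 8, against 20.0%, 16.5%, 17.7% and 15.4% in aerated libraries 1, 3, 5 and 7. These shares did not overlap, although the counts of CAT2 did. CAT3 made up 62.6% ± 8.27 of catalase reads in non-aerated and 80.0% ± 1.87 in aerated plants, and CAT1 2.75% ± 0.478 and 2.56% ± 0.276 (SD, n = 4 each). Thus there were 1.65, 2.92, 1.20 and 1.95 normalized counts of CAT3 for each of CAT2 in the non-aerated libraries, against 3.89, 4.91, 4.49 and 5.32 in the aerated libraries. Non-aerated library 4 stood closest to the aerated libraries in this ratio. The 3 catalases together summed to 194656 ± 14050 normalized counts in non-aerated and 232504 ± 9425 in aerated plants (SD, n = 4 each), without overlap between the libraries. The shares and sums follow from the counts above and were not tested.

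**Figure D2:**
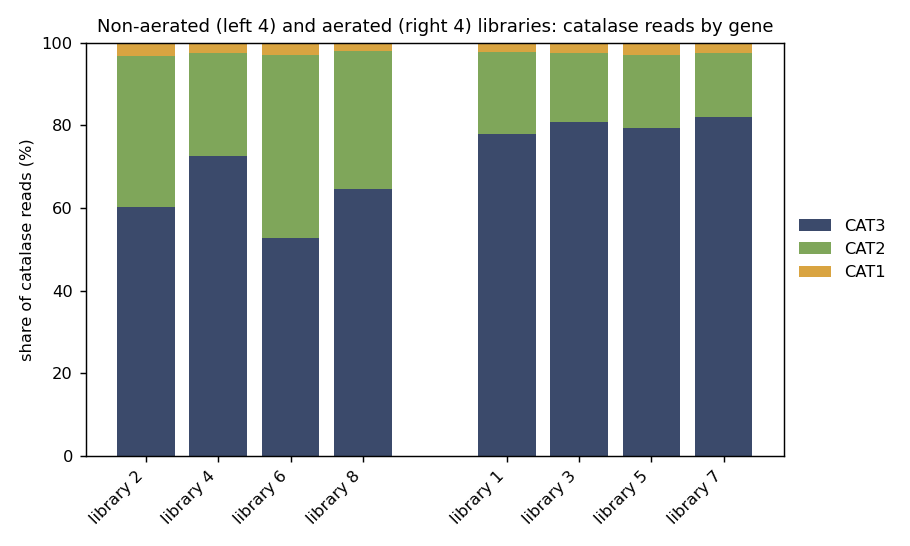
Share of catalase reads (%) from CAT3, CAT2 and CAT1 in each library, with the 4 non-aerated libraries on the left and the 4 aerated libraries on the right. The CAT2 share is 24.9% to 44.1% in non-aerated and 15.4% to 20.0% in aerated libraries.

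APX1 (AT1G07890, chr1:2437281-2439665), which encodes the main cytosolic ascorbate peroxidase, had the largest change of the 8 genes tested. Its normalized counts were 22291, 25007, 23204 and 21284 in the non-aerated libraries, against 12584, 10148, 10113 and 9842 in the aerated libraries. The lowest non-aerated library was well above aerated library 1, the highest of the aerated ones. The mean was 22947 ± 1582 in non-aerated and 10672 ± 1282 in aerated plants (SD, n = 4 each), a log2 fold change of 1.11 (standard error 0.11, limma adjusted p = 0.000245) or 2.16-fold. Leaving out any library gave a log2 fold change of 1.07 to 1.19 and a limma adjusted p value of at most 0.00176. There were 0.156 to 0.218 normalized counts of APX1 for each of CAT3 in the non-aerated libraries, against 0.0489 to 0.0693 in the aerated libraries.

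APX2 (AT3G09640, chr3:2956156-2958330), the other cytosolic gene, was close to silent in every library. Its normalized counts were 6.5, 2.4, 2.1 and 0 in the non-aerated libraries, against 3.4, 2.3, 9.2 and 3.4 in the aerated libraries. The libraries overlapped at a few reads each, so that a difference was not detectable at this depth. In the fit without the limit on counts, the log2 fold change was -0.76 (95% interval -2.11 to 0.58, limma adjusted p = 0.449). The coding sequences of APX1 and APX2 are 72.5% identical with a longest shared run of 12 bases.

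The chloroplast enzymes SAPX and TAPX did not change together. SAPX (AT4G08390, chr4:5314871-5317963), for the soluble stromal enzyme, had 4529, 5073, 4766 and 3685 normalized counts in the non-aerated libraries, against 3541, 3012, 2182 and 2870 in the aerated libraries. The lowest non-aerated library, 8, was just above the highest aerated library, 1. The mean was 4513 ± 595 in non-aerated and 2901 ± 560 in aerated plants (SD, n = 4 each), a log2 fold change of 0.65 (standard error 0.15, limma adjusted p = 0.0144) or 1.57-fold. TAPX (AT1G77490, chr1:29117500-29121093), for the thylakoid-bound enzyme, had 7462, 6025, 8185 and 7215 normalized counts in the non-aerated libraries, against 8097, 8695, 9471 and 8678 in the aerated libraries. Its non-aerated libraries were lower than the aerated ones except for library 6, which was above aerated library 1. The log2 fold change was -0.28 (95% interval -0.52 to -0.04) and did not pass the adjusted threshold (limma adjusted p = 0.0916). Scaled to library totals instead of size factors, TAPX passed it (log2 fold change -0.29, limma adjusted p = 0.0420). There were 1.65, 1.19, 1.72 and 1.96 normalized counts of TAPX for each of SAPX in the non-aerated libraries, against 2.29, 2.89, 4.34 and 3.02 in the aerated libraries. This ratio did not overlap between the treatments, but was not tested.

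APX3 and APX4 did not pass the test. APX3 (AT4G35000, chr4:16664724-16667721), on the peroxisome membrane, had 8919, 7420, 9455 and 9294 normalized counts in the non-aerated libraries, against 7923, 7618, 8130 and 7506 in the aerated libraries. All non-aerated libraries but library 4 were higher than the aerated ones, and the log2 fold change was 0.16 (95% interval -0.06 to 0.38, limma adjusted p = 0.261). APX4 (AT4G09010, chr4:5777397-5779572), in the thylakoid lumen, had 14512, 12232, 15987 and 14367 normalized counts in the non-aerated libraries, against 14509, 15187, 16787 and 13893 in the aerated libraries. The ranges overlapped almost fully, with a log2 fold change of -0.08 (95% interval -0.33 to 0.16, limma adjusted p = 0.623). APX4 overlaps 85 bases of AT4G09000 and 194 bases of an antisense RNA gene (AT4G05690), where reads of these genes cannot be told apart by strand.

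**Figure D3:**
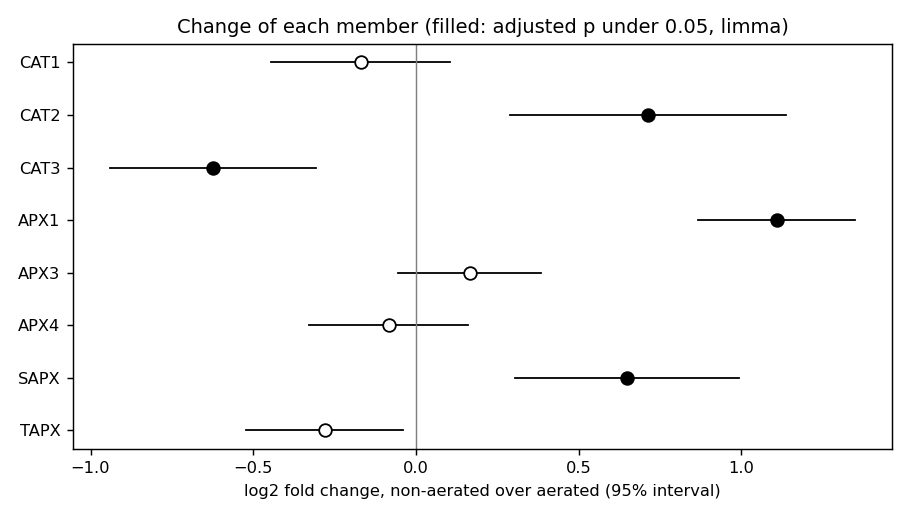
Log2 fold change (non-aerated over aerated) with its 95% interval for the 8 members tested, filled where the limma adjusted p value was under 0.05. The filled points are CAT2 (0.71), APX1 (1.11) and SAPX (0.65) to the right of 0 and CAT3 (-0.62) to its left.

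The members did not all vary in the same way among the non-aerated libraries. Library 4 had the lowest counts of CAT2, APX3, APX4 and TAPX of the 4 non-aerated libraries, but the highest counts of APX1 and SAPX. Library 6 had the highest counts of CAT1, CAT2, APX3, APX4 and TAPX and the lowest of CAT3. The counts of all 6 ascorbate peroxidase genes together summed to 57731 ± 2733 in non-aerated and 45201 ± 1866 in aerated plants (SD, n = 4 each), without overlap. APX1 made up 39.8% ± 3.38 of the ascorbate peroxidase reads in non-aerated and 23.6% ± 2.33 in aerated plants (SD, n = 4 each). The sum includes APX4, the related protein, with 24.7% ± 1.87 of these reads in non-aerated and 33.4% ± 2.09 in aerated plants. The catalases took 0.412% to 0.465% of all reads in non-aerated and 0.484% to 0.573% in aerated libraries, and the ascorbate peroxidases 0.123% to 0.135% and 0.0993% to 0.110%.

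To compare levels between genes, reads were scaled to the total of each library and to the coding length of each gene (RPKM). Reads can also come from exons outside the coding sequence, and that part differs between the genes. The exons of APX1 span 1790 bases for 753 coding bases, and those of APX4 1468 for 1191. For SAPX the lengths are 1980 and 1119 bases, and for CAT1 2226 and 1479. For CAT3 they are 3385 and 1656 bases, and for CAT2 2767 and 1479. The order and overlaps of levels below thus hold per coding length, and can differ per exonic length. CAT3 had the highest level in both treatments, 1662 ± 267 RPKM in non-aerated and 2560 ± 217 RPKM in aerated plants (SD, n = 4 each). CAT2 followed with 1026 ± 222 and 622 ± 81.5 RPKM, and APX1 with 690 ± 79.1 and 323 ± 47.7 RPKM, in non-aerated and aerated plants. In non-aerated plants the ranges of CAT2 and APX1 overlapped, whereas in aerated plants CAT2 was above APX1 in every library and APX1 overlapped with APX4 instead. APX4, APX3 and TAPX came next in both treatments, at 270 ± 16.8, 229 ± 13.7 and 127 ± 10.2 RPKM in non-aerated plants and 288 ± 11.4, 205 ± 7.13 and 155 ± 4.33 RPKM in aerated plants. SAPX and CAT1 were lower than these in both treatments. SAPX had 91.4 ± 15.2 RPKM in non-aerated and 59.3 ± 13.6 in aerated plants, and CAT1 81.0 ± 10.5 and 91.4 ± 5.77. Their ranges overlapped in non-aerated plants, and CAT1 was above SAPX in every aerated library. APX2 had at most 0.195 RPKM in non-aerated and 0.260 in aerated libraries. No other neighbours in the order of levels had overlapping ranges within a treatment. The coding length of CAT3 used here is that of its longest annotated form (1656 bases, against 1479 for CAT1 and CAT2), which starts further upstream.

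**Figure D4:**
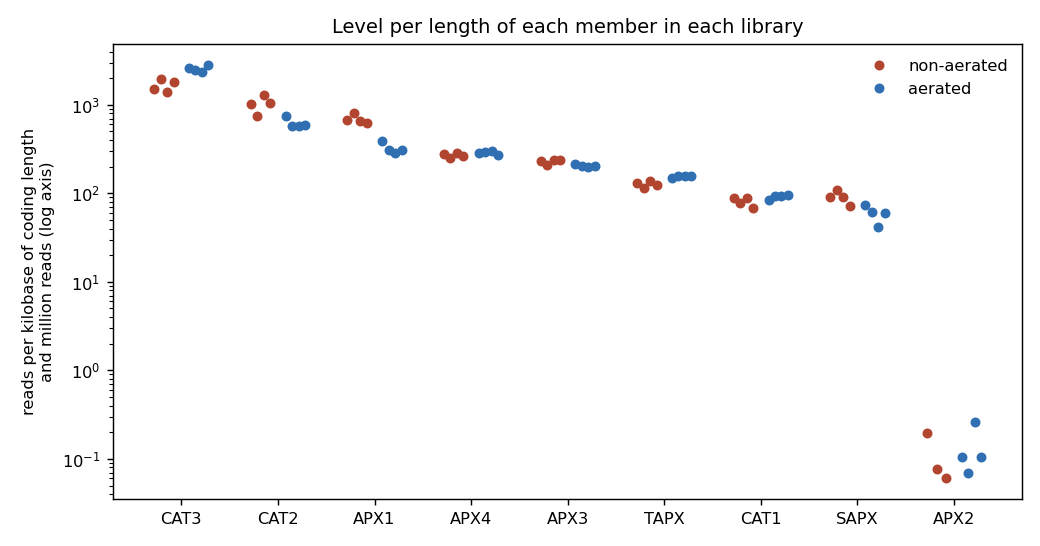
Level of each member in RPKM (log axis) in each non-aerated (left, red) and aerated (right, blue) library, ordered by the mean of aerated plants. CAT3 is highest at 1383 to 1955 RPKM in non-aerated and 2320 to 2841 in aerated libraries, and APX2 is below 0.3 throughout, with 1 non-aerated library at 0 that a log axis cannot show.

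The recycling of ascorbate was examined in lists of the enzymes around these peroxidases, chosen for their function with earlier results of these data known. Of 8 genes of monodehydroascorbate and dehydroascorbate reductases, which return oxidized ascorbate to its reduced form, 5 were higher, none was lower and 3 did not pass (limma adjusted p under 0.05). Over all genes tested, 12.4% were higher and 10.0% lower, and these shares are the background of each list below. The median log2 fold change of this list was 0.62. MDAR3 had 337.3, 576.1, 475.1 and 607.3 normalized counts in the non-aerated libraries, against 101.6, 84.5, 63.3 and 102.3 in the aerated libraries, a log2 fold change of 2.48 (standard error 0.22, limma adjusted p = 0.000168). MDAR2 averaged 4799 ± 824 normalized counts in non-aerated and 2355 ± 185 in aerated plants (SD, n = 4 each), a log2 fold change of 1.01 (limma adjusted p = 0.000782). Both genes were higher in each non-aerated library than in any aerated one. Without aerated library 5, only 3 genes of this list passed.

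In glutathione synthesis and reduction, 2 of 4 genes were higher. These were GSH1, the first enzyme of glutathione synthesis, with a log2 fold change of 0.39 (limma adjusted p = 0.0218), and GR1, a glutathione reductase, with 0.42 (limma adjusted p = 0.0466). GR1 lost its call in 11 and GSH1 in 3 of 16 alternatives, and none of the list passed without aerated library 7 or without non-aerated library 2. Of 10 genes of ascorbate synthesis, 2 were higher and 1 was lower. VTC5, a GDP-L-galactose phosphorylase, had 1758, 2316, 2517 and 3734 normalized counts in the non-aerated libraries, against 1593, 1237, 957 and 1125 in the aerated libraries, a log2 fold change of 1.04 (limma adjusted p = 0.00888). VTC1 (log2 fold change 0.30, limma adjusted p = 0.0311) forms GDP-mannose, and L-GalDH (log2 fold change -0.38, limma adjusted p = 0.0191) forms the last precursor of ascorbate. VTC1 lost its call in 5 of 16 alternatives and L-GalDH in 1. Without aerated library 7, 1 gene of this list passed, and without non-aerated library 4, 5 did. APX5 and APX6, the other genes of the ascorbate peroxidase family by name, had log2 fold changes of -0.26 (limma adjusted p = 0.289) and -0.03 (limma adjusted p = 0.882).

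Hydrogen peroxide reaches the catalases mainly from oxidases of the peroxisome. Of 13 genes of such oxidases, 12 were tested, 3 were lower and none was higher in non-aerated plants, with a median log2 fold change of -0.05. Over all genes tested, 22.4% were called in either direction and 10.0% as lower. The count of 3 among these 12 genes was not tested against these shares. HAOX2, a hydroxyacid oxidase, had 733.5 ± 105.1 normalized counts in non-aerated and 1087 ± 77.2 in aerated plants (SD, n = 4 each), a log2 fold change of -0.57 (limma adjusted p = 0.00702). ACX2, an acyl-CoA oxidase of fatty acid breakdown, had 2328 ± 110 in non-aerated and 3428 ± 250 in aerated plants (SD, n = 4 each), a log2 fold change of -0.56 (limma adjusted p = 0.00193). The glycolate oxidases of photorespiration, GLO1 and GLO2, named here because CAT2 acts after them, had log2 fold changes of 0.08 (95% interval -0.26 to 0.43) and 0.13 (95% interval -0.14 to 0.41) and did not pass. Their coding sequences are 92.4% identical, with a longest shared run of 68 bases, shorter than a read.

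Outside the peroxisome, NADPH oxidases of the plasma membrane form superoxide, which turns into hydrogen peroxide. Of 10 such genes 7 were tested, and 3 were higher, against 12.4% of all genes tested. DESeq2 also called 3 and edgeR 2 of them. RBOHD, the main NADPH oxidase of leaves, had 5371, 12204, 8341 and 19527 normalized counts in the non-aerated libraries, against 2599, 2727, 1694 and 2462 in the aerated libraries. All non-aerated libraries were above the aerated ones, over a wide range (log2 fold change 2.12, standard error 0.34, limma adjusted p = 0.00209). RBOHC, known from root hairs, had 62.7 to 120.3 normalized counts in non-aerated and 23.7 to 64.7 in aerated libraries (log2 fold change 1.07, limma adjusted p = 0.0431). RBOHC lost its call in 10 of 16 alternatives, among them edgeR with TMM factors (adjusted p = 0.0518) and library totals before limma (adjusted p = 0.0622). Without aerated library 5 or 7 or non-aerated library 2 or 4, 1 gene of this list passed.

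Other genes for enzymes that remove peroxides were examined in 2 lists, beside a share of 22.4% called over all genes tested. The small counts called in these lists do not set them apart from that share. Of 8 glutathione peroxidase-like genes 7 were tested, and GPX7, of the chloroplast, was the 1 that passed. It had 724.8, 653.0, 1088 and 577.9 normalized counts in the non-aerated libraries, against 359.5, 295.8, 255.8 and 306.1 in the aerated libraries, a log2 fold change of 1.29 (limma adjusted p = 0.00153). GPX7 overlaps 751 bases of AT4G31875 on the opposite strand, where reads of both genes cannot be told apart. APX5, GR1, L-GalDH and LSD1 also overlap neighbouring genes. None of the 8 peroxiredoxin genes tested passed in limma, where 2 had an unadjusted p under 0.05, while edgeR called 0 and DESeq2 2 of them. The median log2 fold change of this list was -0.07, and the treatments did not overlap in 2 of its genes, against 27.3% of all genes tested. NCA1, a chaperone needed for catalase activity, and LSD1, a zinc finger protein that binds catalases, had log2 fold changes of -0.15 (95% interval -0.33 to 0.03) and -0.19 (95% interval -0.55 to 0.17) and did not pass (limma adjusted p = 0.223 and 0.429).

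**Figure D5:**
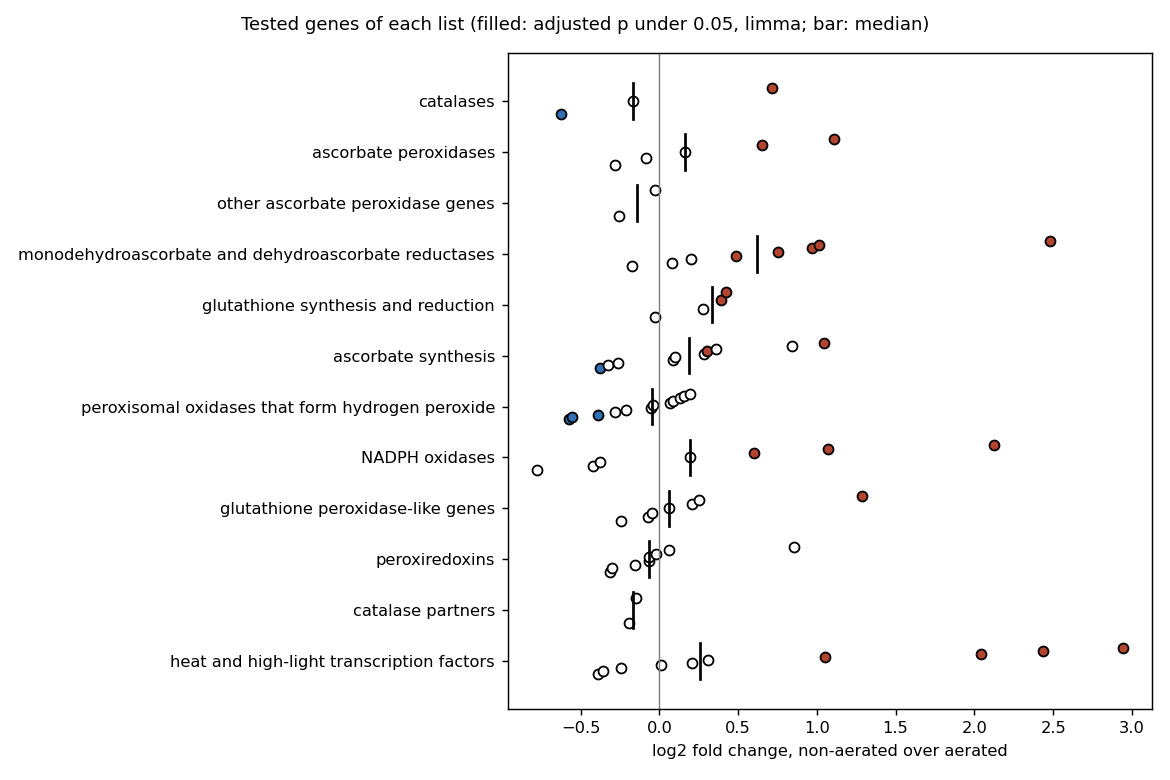
Log2 fold change (non-aerated over aerated) of each tested gene in the member lists and the 10 other lists, filled where the limma adjusted p value was under 0.05 (red higher, blue lower in non-aerated plants), with a bar at the median of each list. Medians run from -0.17 for the catalases and the catalase partners to 0.62 for the monodehydroascorbate and dehydroascorbate reductases.

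Of 10 transcription factors of heat and strong-light responses, all were tested, 4 were higher, none was lower and 6 did not pass, against 12.4% higher and 10.0% lower of all genes tested. HSFA2, a heat shock factor known to activate APX2, had 245.3, 164.8, 92.5 and 106.2 normalized counts in the non-aerated libraries, against 59.6, 4.6, 13.2 and 23.2 in the aerated libraries. Its log2 fold change was 2.94 (standard error 0.63, limma adjusted p = 0.00901). With low counts in the aerated libraries, this value ranged from 2.4 to 3.5 with a library left out and from 2.35 to 3.00 under the other alternatives. APX2 itself had at most 6.5 normalized counts in a non-aerated library. ZAT12, a zinc finger factor known to be needed for the induction of APX1 under oxidative stress, had 384.7, 470.2, 351.8 and 602.0 normalized counts in the non-aerated libraries, against 109.2, 111.9, 89.7 and 38.7 in the aerated libraries (log2 fold change 2.44, limma adjusted p = 0.000893). Both factors were higher in each non-aerated library than in any aerated one. Whether either factor acted on APX1 or APX2 in these plants was not tested.

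Among the 20152 genes tested outside the members, the genes with a pattern most like that of APX1 were TPR10 (AT3G04710), AT5G51920 and AT3G13277. Likeness was measured as the root mean square difference of log2 values, centred on their mean over the 8 libraries, and was 0.061, 0.082 and 0.092, against a median of 0.62 over all these genes. TPR10, an ankyrin repeat protein, had 488.7, 547.2, 530.4 and 523.6 normalized counts in the non-aerated libraries, against 272.1, 242.1, 226.8 and 221.0 in the aerated libraries. For CAT3 the nearest genes were AT2G22660, AT2G40480 and AT4G28070, with differences of 0.058, 0.082 and 0.086 against a median of 0.42. AT2G22660, a glycine-rich domain protein, had 1811, 2227, 1619 and 2226 normalized counts in the non-aerated libraries, against 3082, 3153, 3135 and 3328 in the aerated libraries. All of these genes were picked for their likeness over the same 8 libraries. Their small differences and shared patterns thus follow from the choice.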

How the data were processed

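Pooled shoots were sequenced as single-end mRNA reads with an unstranded kit. According to the study's methods and processing notes, the authors mapped reads to TAIR10 with HISAT2 2.0.4, counted them on Araport11 genes with featureCounts 1.5.2 and scaled the counts with DESeq2 size factors. The deposited signal is this normalized count with 1 decimal, and the table's columns of log2 fold changes and p values, which hold the authors' own comparison, were not used, nor was the second set, whose table holds only such columns. Treatments were assigned by column names, which carry a library number and no replicate number.

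Whole reads were recovered from the steps between low values. All of the values up to 400 reads (100%) were whole within 0.1 read. The main test was limma 3.58.1 with a trend (R 4.3.3). Values were log2 of the normalized count plus a pseudocount of 1, for genes reaching 10 normalized counts in 4 libraries or more. When a library was left out, the limit was 3 libraries. The alternatives were pseudocounts of 0.5 and 10, no filter beyond 1 read, edgeR 4.0.16 (TMM or DESeq2 size factors) and DESeq2 1.42.0 on the recovered reads, TMM factors or library totals before limma, and leaving out each library. All 3 tools were run on simulated data, in which every gene had the same dispersion and the changes were larger than those of the members. That check thus does not bear on the calls of the members. Motifs were searched in the 250 bases before each gene start of TAIR10.1 (RefSeq), whose gene table held 33011 of the 33296 identifiers (99.1%). Identity between members was computed on coding sequences, because no protein sequences were used here. Python 3.11.15, numpy 2.4.6, pandas 2.3.3 and matplotlib 3.10.9 were used.

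The members and the gene lists were chosen with earlier results of these data known. Genes named are all members, up to 2 called genes with the largest increase and up to 2 with the largest decrease of each other list, every gene of lists of at most 2 genes, and the 3 genes most like APX1 and CAT3. GLO1 and GLO2 were added after their values were seen. Replicates are separate dishes, so that p values cover the spread between dishes of a single experiment. According to the study's methods, several dishes could be aerated from the same flask. Aerated dishes may thus have shared an air supply. Precision at low levels is limited by counting error, which left APX2 untested.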

Additional observations from a re-analysis of the deposited data

Results flagged for a closer look

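In 3 of 64 groups of 4 libraries examined, 1 library lay far from the other 3, by a gap beyond Dixon's critical value at the 95% level, where chance gives about 1 in 20 groups. For CAT3 it was aerated library 7, with 201354 normalized counts. For APX1 it was aerated library 1, with 12584 normalized counts. For APX2 it was aerated library 5, with 9.2 normalized counts, a difference of a few reads.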

How the results depend on the processing

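Of the 128 values of the 8 tested members under the alternatives, none changed sign, 5 lost an adjusted p value under 0.05 and 1 gained it. The losses were those of CAT2 without 1 of 4 libraries and of CAT3 without the filter, and the gain was that of TAPX with library totals. Thus 3 to 4 members were called with a library left out, and 3 to 5 under the other alternatives. With a library left out, 2852 to 5065 genes were called in all, the lowest number without aerated library 7, against 4508. In the same fits the genes called were 3 to 5 of the monodehydroascorbate and dehydroascorbate reductases, 0 to 2 of glutathione synthesis and reduction and 1 to 5 of ascorbate synthesis. They were 2 to 3 of the peroxisomal oxidases, 1 to 3 of the NADPH oxidases and 1 to 2 of the glutathione peroxidase-like genes. For the heat and strong-light transcription factors they were 3 to 6, and for the root markers 0 to 1. The log2 fold change of APX6, which was not called, ranged from -0.083 to 0.062 with a library left out and turned positive without aerated library 5 (0.024) or non-aerated library 4 (0.062). The causes were not tested. Shares of the catalases per kilobase of coding length moved by less than 1 SD. No paired analysis was possible because the columns carry library numbers and not the replicate numbers of the labels. Counts of 0 to 9.2 for APX2 set the limit of depth.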
